A study of Mus musculus with 9 samples.

Results

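The neutrophil granule and receptor genes are 10 of the 55335 genes in the deposited tables, chosen by symbol: S100a8, S100a9, Ngp, Mmp8, Mmp9, Retnlg, Csf3r, Il1r2, Trem1 and Hdc. Each had a row in the count table and in the FPKM table, and each passed the filter on low counts, Trem1 with the fewest reads. RNA was sequenced from leg muscles of 9 WT c57b6l mice, and every mouse, control mice included, had been through a hindlimb model that the labels name by both suspension and ischaemia. The control group (3 mice) was left untreated, the aspirin group (3 mice) was given aspirin, and the hydrogel group (3 mice) was given aspirin together with a peptide hydrogel. Age, sex, dose and time are not stated in the labels. Uninjured muscle and hydrogel without aspirin were not analysed here. The comparisons address how these genes stood after an anti-inflammatory drug with and without a hydrogel meant for regeneration.

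Neutrophils are short-lived white blood cells that leave the blood for damaged tissue. They carry ready-made granules, filled while the cells mature in the bone marrow, whose proteins kill microbes and cut matrix. In injured muscle they are among the first cells to arrive and are followed by monocytes and macrophages. Granule protein genes such as Ngp are read mainly while the granules are being filled, whereas receptor genes such as Csf3r and Il1r2 are also read in mature cells. C/EBP factors and PU.1 are the transcription factors best known for driving granule and receptor genes.

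The promoters of 4 genes, the alarmin pair S100a8 and S100a9 and the granule protein genes Ngp and Mmp8, are shown as examples of 2 roles, alarm proteins of the cytosol and proteins of the secondary granules. Each is the stretch of up to 160 bases nearest to the gene's start in the RefSeq window that lies outside annotated exons (GRCm38.p6). They are written 5′ to 3′ on the gene's strand, with matches to the C/EBP motif TTNNGNAA or the PU.1 motif GAGGAA, on either strand, in capitals. The S100a8 stretch is chr3:90668821-90668977 (+), the S100a9 stretch chr3:90695722-90695881 (-), the Ngp stretch chr9:110419587-110419746 (+) and the Mmp8 stretch chr9:7558269-7558428 (+).
S100a8: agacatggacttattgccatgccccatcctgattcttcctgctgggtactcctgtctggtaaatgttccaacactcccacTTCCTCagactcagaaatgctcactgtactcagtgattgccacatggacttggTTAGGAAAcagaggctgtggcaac
S100a9: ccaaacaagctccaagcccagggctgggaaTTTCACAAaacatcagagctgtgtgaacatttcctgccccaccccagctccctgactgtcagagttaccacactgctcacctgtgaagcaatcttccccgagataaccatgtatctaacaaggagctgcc
Ngp: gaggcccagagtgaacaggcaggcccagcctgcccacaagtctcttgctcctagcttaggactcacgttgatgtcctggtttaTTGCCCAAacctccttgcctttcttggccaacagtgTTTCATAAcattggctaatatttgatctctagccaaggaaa
Mmp8: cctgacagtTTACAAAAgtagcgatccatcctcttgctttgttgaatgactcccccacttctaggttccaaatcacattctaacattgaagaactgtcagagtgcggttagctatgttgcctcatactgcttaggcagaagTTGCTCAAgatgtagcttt
The S100a8 stretch holds 1 match of each motif, and the S100a9, Ngp and Mmp8 stretches hold C/EBP matches and none of PU.1. Of the 10 genes, 9 were in the promoter table (Mmp9 was not). Over the full 250 bases before the RefSeq start, 6 of these 9 held a C/EBP match (S100a8, S100a9, Retnlg, Mmp8, Trem1 and Ngp), against 36.8% of 32817 mouse windows of the same length. The PU.1 motif was found in 4 of 9 (S100a8, Csf3r, Mmp8 and Trem1), against 23.3% of windows. The letters TATAAA, those of a TATA box, were found in 1 of 9 (S100a8, 30 to 25 bases before its RefSeq start), against 12.4% of windows. A PU.1 match ends directly before that TATA box, 36 to 31 bases before the same start. For S100a8 and Ngp the RefSeq start lies downstream of the gene's start in the GENCODE annotation used for gene coordinates, so the printed stretches end before the GENCODE start. The TATA box and the nearer PU.1 match of S100a8, and another C/EBP match of Ngp 11 to 4 bases before its RefSeq start, lie past the printed stretch and inside the gene as GENCODE places it. Such matches describe letters and do not show that a factor was bound.

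Libraries held 32197791 to 48170537 counts, and 18259 genes were tested. Aspirin replicate 1 stood apart from the rest: its median Spearman correlation with the other 8 libraries was 0.781, against 0.928 to 0.953 for the others, and its 7 skeletal muscle fibre genes summed to 16444 FPKM against 38326 to 66219. Libraries carry code numbers that differ between the groups (9 for controls, 8 for hydrogel, 7 and 10 for aspirin), so a difference between codes and a difference between treatments cannot be told apart. In bulk tissue, fewer neutrophils and less RNA per neutrophil cannot be told apart either. Levels of a gene across libraries are given as CPM (counts scaled to a common library size). Levels of different genes are compared as FPKM, which divides by gene length. Sums over genes are in the deposited FPKM, which do not carry the scaling used for CPM, so their spread between libraries differs from that of CPM. For example, S100a9 stood at 160 CPM and 444 FPKM in Aspirin replicate 1. In Hydrogel replicate 3 it stood at 2.40 CPM and 2.87 FPKM.

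The 10 genes were lowest on average in the hydrogel group and, for 9 of 10, highest in the aspirin group. Over all genes tested, group means stood in the order aspirin, control, hydrogel for 27.3%. In the comparison of hydrogel with aspirin all 10 genes were lower with hydrogel, with a median log2 fold change of -3.47 against -0.05 over all genes tested. In 5 of them, S100a8, Csf3r, Il1r2, Hdc and Mmp9, every hydrogel library lay below every aspirin library, as was the case for 8.75% of all genes. By edgeR's quasi-likelihood test, adjusted over all genes, none of the 10 passed the threshold of 0.05 (adjusted p = 0.453 to 0.502), and 0.0% of all genes were called. At an unadjusted p under 0.05, 9 of the 10 were lower (all but Retnlg), against 7.61% of all genes. DESeq2 called 6 of the 10 lower (S100a8, Csf3r, Il1r2, Hdc, Mmp8 and Mmp9), against 0.613% of all genes. It called 0 of them without Aspirin replicate 1, where 25 of 18746 genes were called lower. Without Hydrogel replicate 3 it also called 0 of them, and 25 of 19165 genes lower. Without Hydrogel replicate 2 it called 3 of them, and 104 of 19270 genes lower. Without Aspirin replicate 1 the median was -2.17.

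In the comparison of aspirin with control, 9 of the 10 genes were higher with aspirin (all but Mmp9), with a median log2 fold change of 1.74 against 0.05 over all genes, and 0.28 without Aspirin replicate 1. Csf3r and Il1r2 were higher in every aspirin library than in every control library, as were 5.54% of all genes. edgeR called none of the 10 (adjusted p = 0.747 to 0.973) and 0.0% of all genes. Csf3r, Il1r2 and Hdc were higher at an unadjusted p under 0.05, against 3.09% of genes. DESeq2 called Il1r2 alone higher, against 0.181% of genes, and this call was lost without Control replicate 2, Control replicate 3 or Aspirin replicate 1. Without Aspirin replicate 2 it called 3 of the 10 higher, and 44 of 19196 genes.

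In the comparison of hydrogel with control, all 10 genes were lower with hydrogel, with a median of -1.88 against -0.03 over all genes. Hdc and Mmp9 were lower in every hydrogel library than in every control library, against 6.3% of all genes. edgeR called none of the 10 (adjusted p = 0.987 to 0.992) and 0.0% of all genes, and Mmp9 alone was lower at an unadjusted p under 0.05, against 2.18%. DESeq2 called Mmp9 alone lower, against 0.0438% of genes. That call was lost without Control replicate 3, without Aspirin replicate 1, or without any 1 of the hydrogel libraries. The 3 comparisons share groups, so their values are not independent of each other. In a test of any difference among the 3 groups, edgeR called none of the 10 (adjusted p = 0.659 to 0.721) and 0.0% of genes, while DESeq2 called Csf3r, Il1r2 and Hdc, against 0.838% of genes. Without Aspirin replicate 1 it called 1 of the 10, and 103 of 18746 genes tested. It also called 1 without Hydrogel replicate 1 (144 of 19117 genes) and 1 without Hydrogel replicate 3 (100 of 19165). It called 6 without Aspirin replicate 2 (217 of 19196 genes) and 5 without Control replicate 2 (190 of 19100). Without Aspirin replicate 3 it called 5, but also 1282 of 19244 genes.

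**Figure D1:**
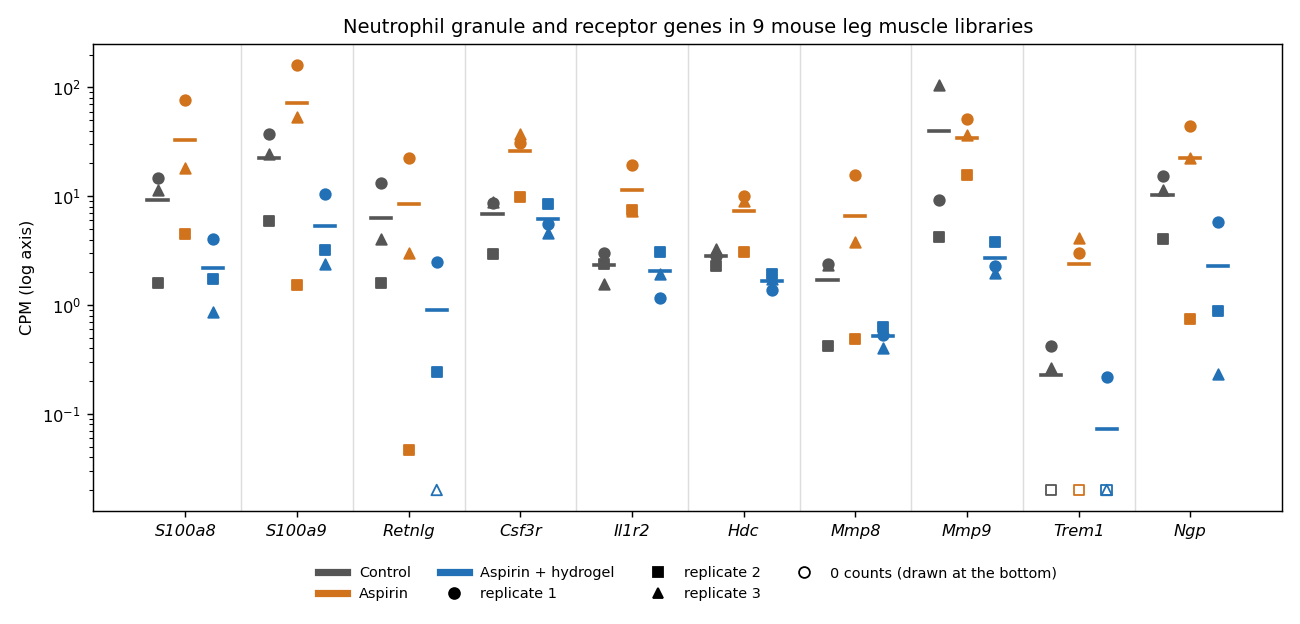
Level of each of the 10 genes in CPM (log axis) in the 9 libraries. Filled symbols are single libraries, shaped by replicate, open symbols are libraries with 0 counts drawn at the bottom, and bars are group means; 7 of the 10 genes are highest in Aspirin replicate 1, while Aspirin replicate 2 lies within the control range for S100a8, Hdc, Mmp8, Mmp9 and Trem1.

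Aspirin replicate 1 was the highest of the 9 libraries for 7 of the 10 genes, against 29.2% of all genes. A hydrogel library lay alone as the lowest for 7 of 10, against 31.2% of all genes by the same rule, and in 5 of these it was Hydrogel replicate 3. Ties were not counted: the lowest value of Trem1 was 0 in Control replicate 2, Aspirin replicate 2 and Hydrogel replicates 2 and 3. Summed over the 10 genes, the level was 151, 19.8 and 93.3 FPKM in Control replicates 1 to 3 and 773, 21.4 and 145 FPKM in Aspirin replicates 1 to 3. It was 32.9, 13.5 and 5.76 FPKM in Hydrogel replicates 1 to 3. The aspirin group thus held both the library with the most of this RNA and one with about as little as the lowest control.

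**Figure D2:**
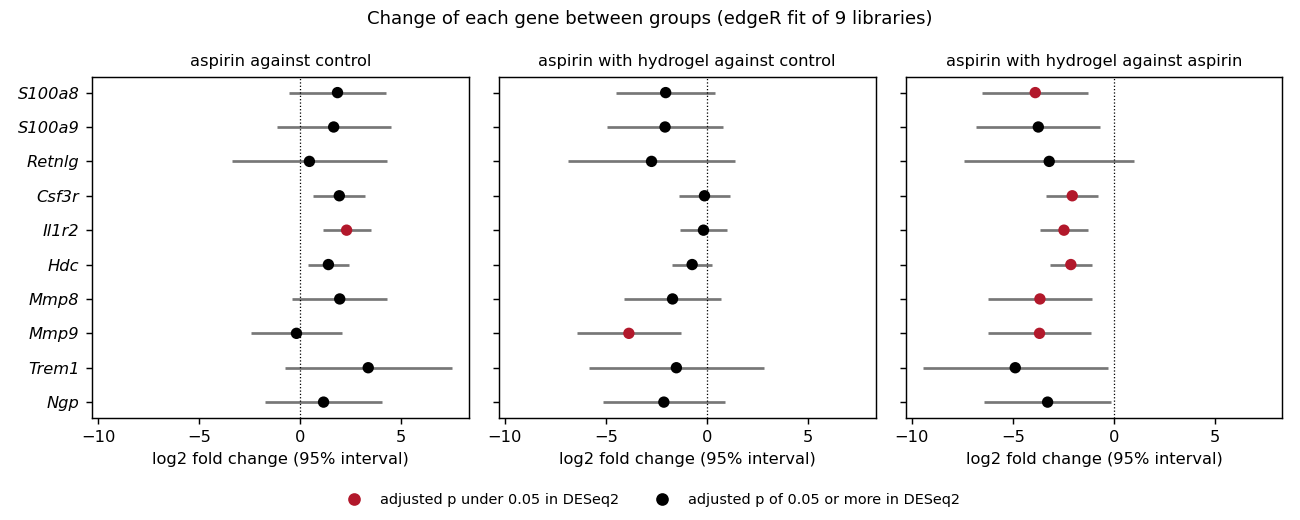
log2 fold change of each of the 10 genes in the 3 comparisons, from the edgeR fit, with 95% intervals. Red points have an adjusted p under 0.05 in DESeq2 (6 genes for hydrogel against aspirin, 1 gene in each of the other comparisons); intervals run wide, for example from -6.8 to -0.67 for S100a9 with hydrogel against aspirin.

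S100a8 and S100a9 encode the 2 subunits of calprotectin, a calcium- and zinc-binding protein that fills the neutrophil cytosol and acts as an alarm signal when released. S100a8 (ENSMUSG00000056054, chr3:90668978-90670035) and S100a9 (ENSMUSG00000056071, chr3:90692632-90695721) are protein-coding genes of 3 exons each, merged over transcripts, and lie 22596 bases apart on opposite strands (GENCODE vM21). Together they made up 43.2% to 78.1% of the summed FPKM of the 10 genes in each library. S100a8 stood at 14.6, 1.58 and 11.5 CPM in the control libraries, at 76.3, 4.49 and 18.1 CPM with aspirin, and at 4.01, 1.75 and 0.867 CPM with hydrogel. All 3 hydrogel libraries lay below all 3 aspirin libraries, and Control replicate 2 lay among the hydrogel libraries. S100a8 was 14.8-fold lower with hydrogel than with aspirin (log2 -3.89 ± 1.16 SE; adjusted p = 0.453 in edgeR and 0.0136 in DESeq2). The DESeq2 call was lost without Aspirin replicate 1, Hydrogel replicate 2 or Hydrogel replicate 3.

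S100a9 stood at 37.5, 5.91 and 24.7 CPM in the controls, at 160, 1.54 and 53.4 CPM with aspirin, and at 10.4, 3.20 and 2.40 CPM with hydrogel. Its lowest library of all 9 was Aspirin replicate 2, so that the aspirin group spanned the whole range of the data. S100a9 was lower with hydrogel than with aspirin by a log2 fold change of -3.74 ± 1.35 (SE), with adjusted p = 0.453 in edgeR and 0.0567 in DESeq2. The partners also parted in Aspirin replicate 2. The FPKM ratio of S100a8 to S100a9 was 0.199 to 0.409 in 8 libraries and 2.2 in that library, which held 192 counts of S100a8 and 66 of S100a9. Keratinocytes also make both proteins, and 6 keratinocyte genes summed to 62.9 FPKM in Control replicate 1 against at most 1.18 FPKM elsewhere. The part of those cells in the level of S100a8 and S100a9 in that control was not tested. Of the known receptors of calprotectin, Tlr4 stood at 19.0, 17.1 and 8.25 CPM with aspirin and at 1.27, 4.66 and 9.50 CPM in controls. Its groups overlapped (log2 1.53 ± 0.63 SE, adjusted p = 0.753). Ager, which encodes the receptor RAGE, was at 9.55 CPM in Aspirin replicate 1 and at 0.400 to 2.79 CPM in the other libraries.

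Ngp, neutrophilic granule protein, is a cathelicidin-like protein of the secondary granules (ENSMUSG00000032484, chr9:110419747-110423012, 4 exons). It stood at 15.2, 4.08 and 11.3 CPM in the controls, at 44.3, 0.749 and 22.6 CPM with aspirin, and at 5.78, 0.876 and 0.233 CPM with hydrogel. Aspirin replicate 2 and Hydrogel replicates 2 and 3 lay below every control, and the other aspirin libraries lay above them. Ngp differed by a log2 fold change of -3.28 ± 1.40 (SE) between hydrogel and aspirin (adjusted p = 0.454 in edgeR, 0.139 in DESeq2). Its span over the 9 libraries, 190-fold from lowest to highest, compares with 7.22-fold for Hdc.

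Mmp8, the neutrophil collagenase of the secondary granules, and Mmp9, the gelatinase of the tertiary granules, are matrix metalloproteinases that cut fibrillar collagen and denatured or basement membrane collagen. Mmp8 (ENSMUSG00000005800, chr9:7558456-7568485, 10 merged exons) stood at 2.36, 0.424 and 2.35 CPM in controls, at 15.6, 0.491 and 3.77 CPM with aspirin, and at 0.532, 0.634 and 0.400 CPM with hydrogel. Control replicate 2 and Aspirin replicate 2 lay among the hydrogel libraries, so the groups overlapped. Mmp8 was 12.6-fold lower with hydrogel than with aspirin (log2 -3.66 ± 1.13 SE; adjusted p = 0.453 in edgeR, 0.0348 in DESeq2), and the DESeq2 call was lost without Aspirin replicate 1 or any 1 of the hydrogel libraries.

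Mmp9 (ENSMUSG00000017737, chr2:164940780-164955850, 15 merged exons) had a pattern of its own. It stood at 9.29, 4.20 and 105 CPM in controls, at 51.5, 15.6 and 36.2 CPM with aspirin, and at 2.30, 3.8 and 1.97 CPM with hydrogel. Its highest library was Control replicate 3, and every hydrogel library lay below every control and every aspirin library. Mmp9 was 14.6-fold lower with hydrogel than in controls (log2 -3.87 ± 1.13 SE; adjusted p = 0.987 in edgeR, 0.0492 in DESeq2) and 12.8-fold lower than with aspirin (log2 -3.68 ± 1.12 SE; adjusted p = 0.453 in edgeR, 0.0186 in DESeq2). The latter DESeq2 call was lost without Aspirin replicate 1, Hydrogel replicate 1 or Hydrogel replicate 3. Against controls, the log2 fold change without Control replicate 3 was -1.34 for hydrogel and 2.37 for aspirin, where it was -0.19 ± 1.00 (SE) with all libraries and 0.29 with scaling by library size alone.

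Osteoclasts also make much Mmp9, and 5 osteoclast genes summed to 245 FPKM in Control replicate 3, 222 in Aspirin replicate 1, 109 in Aspirin replicate 2 and 12.6 to 69.3 FPKM in the other 6 libraries. Ctsk, the collagen-cutting protease of osteoclasts, was at 320 CPM in Control replicate 3 against 24.5 to 160 CPM in the others, and Acp5, their acid phosphatase, at 176 CPM against 6.47 to 94.4 CPM. The part of such cells in the Mmp9 level was not tested. The FPKM ratio of Mmp9 to Mmp8 was 30.6 in Control replicate 3 and 22.7 in Aspirin replicate 2, and 2.26 to 6.73 in the others. Of the tissue inhibitors of these enzymes, Timp1 stood at 28.7, 7.14 and 14.7 CPM with aspirin and at 3.33, 3.05 and 1.70 CPM with hydrogel. Its groups did not overlap (log2 -2.64 ± 0.73 SE; adjusted p = 0.453 in edgeR, 0.0266 in DESeq2), and the DESeq2 call was lost without Aspirin replicate 1 or any 1 of the hydrogel libraries. Timp2 differed by -0.19 ± 0.30 and Timp3 by 0.55 ± 0.30 on the log2 scale in the same comparison, with adjusted p = 0.785 and 0.492 in edgeR.

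Retnlg, resistin-like gamma, is a small secreted protein of neutrophils and their marrow precursors (ENSMUSG00000022651, chr16:48872621-48874496, 4 exons). It stood at 13.1, 1.61 and 4.04 CPM in controls, at 22.5, 0.0468 and 3.03 CPM with aspirin, and at 2.49, 0.242 and 0 CPM with hydrogel. The value in Aspirin replicate 2 rests on 2 counts, and the 0 counts of Hydrogel replicate 3 allow up to 0.1 CPM (3 counts). Groups overlapped in every comparison. For hydrogel against aspirin Retnlg had a wide interval (log2 -3.20, from -7.41 to 1.01; adjusted p = 0.502 in edgeR, 0.428 in DESeq2), and its value moved to -0.71 without Aspirin replicate 1. For aspirin against control it was 0.45 ± 1.69 (SE) with all libraries and -2.06 without Aspirin replicate 1.

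Csf3r encodes the receptor for G-CSF, the cytokine that drives neutrophil production and survival (ENSMUSG00000028859, chr4:126024550-126044440, 17 merged exons). It stood at 8.60, 2.95 and 8.89 CPM in controls, at 30.6, 9.76 and 37.5 CPM with aspirin, and at 5.61, 8.52 and 4.57 CPM with hydrogel. Every aspirin library lay above every other library, while control and hydrogel libraries overlapped. Csf3r was 3.81-fold higher with aspirin than in controls (log2 1.93 ± 0.57 SE; adjusted p = 0.753 in edgeR, 0.103 in DESeq2) and 4.17-fold lower with hydrogel than with aspirin (log2 -2.06 ± 0.57 SE; adjusted p = 0.453 in edgeR, 0.0449 in DESeq2). The second DESeq2 call remained in 2 of 9 fits that each left out 1 library, those without Control replicate 2 and without Aspirin replicate 2. Between hydrogel and control the log2 fold change was -0.13, with a 95% interval from -1.38 to 1.12. Its ligand gene Csf3 was too low for the test, with 4.71 and 0.857 CPM in Aspirin replicates 1 and 3 and at most 0.145 CPM elsewhere.

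Il1r2 encodes the decoy receptor of interleukin-1, which binds the cytokine and passes no signal on (ENSMUSG00000026073, chr1:40074079-40125231, 11 merged exons). It stood at 3.01, 2.37 and 1.57 CPM in controls, at 19.4, 7.42 and 7.28 CPM with aspirin, and at 1.16, 3.05 and 1.93 CPM with hydrogel. As for Csf3r, all aspirin libraries lay above all others, Aspirin replicate 2 included. Il1r2 was 4.90-fold higher with aspirin than in controls (log2 2.29 ± 0.53 SE; adjusted p = 0.747 in edgeR, 0.00931 in DESeq2). It was 5.55-fold lower with hydrogel than with aspirin (log2 -2.47 ± 0.53 SE; adjusted p = 0.453 in edgeR, 0.00348 in DESeq2), a DESeq2 call lost without Aspirin replicate 1 or Hydrogel replicate 3. Hydrogel and control differed by -0.18 on the log2 scale, with a 95% interval from -1.33 to 0.97.

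The interleukin-1 genes around this receptor were read beside it. Il1b, the cytokine that the decoy binds, stood at 2.42, 0.134 and 2.41 CPM in controls, at 27.9, 2.29 and 36.2 CPM with aspirin and at 0.967, 0.845 and 0.233 CPM with hydrogel. Every hydrogel library lay below every aspirin library (log2 -5.00 ± 1.26 SE; adjusted p = 0.453 in edgeR, 0.00103 in DESeq2), with the DESeq2 call lost without Aspirin replicate 1. Il1rn, the soluble receptor antagonist, differed by -2.01 ± 0.98 in that comparison, again with no overlap. Il1r1, the signalling receptor, differed by -1.0 ± 0.37 with no overlap, and Il1rap, its co-receptor, by -0.98 ± 0.46 (adjusted p in edgeR 0.453 to 0.464 for these 3 genes). Il1a was at most 1.79 CPM in any library.

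Trem1 encodes an activating receptor that signals through the adaptor Tyrobp (DAP12) and amplifies inflammatory responses of neutrophils and monocytes (ENSMUSG00000042265, chr17:48232768-48246924, 4 merged exons). Its counts were 23, 0 and 9 in controls, 158, 0 and 146 with aspirin, and 9, 0 and 0 with hydrogel. In CPM, Aspirin replicates 1 and 3 stood at 3.01 and 4.17, and the 7 other libraries at 0.425 or less. The 0 counts of Control replicate 2, Aspirin replicate 2 and Hydrogel replicates 2 and 3 allow up to 0.0669, 0.0702, 0.0906 and 0.1 CPM. Trem1 thus had 2 high libraries, and the aspirin group overlapped both others. The fitted log2 fold change of hydrogel against aspirin, -4.88 ± 2.02 (SE), had an adjusted p = 0.453 in edgeR and 0.39 in DESeq2. Tyrobp, which many myeloid cells share, differed by -1.54 ± 0.66 on the log2 scale, with overlap (adjusted p = 0.454). Pglyrp1, a granule protein that binds this receptor, differed by -1.60 ± 1.12, with overlap (adjusted p = 0.548).

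Hdc encodes histidine decarboxylase, the enzyme that makes histamine in mast cells, basophils and also neutrophils (ENSMUSG00000027360, chr2:126593667-126619299, 12 exons). It stood at 2.84, 2.28 and 3.31 CPM in controls, at 9.95, 3.07 and 9.11 CPM with aspirin, and at 1.38, 1.93 and 1.73 CPM with hydrogel. The hydrogel libraries lay below all controls and all aspirin libraries, and Aspirin replicate 2 lay within the control range. Hdc was 2.62-fold higher with aspirin than in controls (log2 1.39 ± 0.44 SE; adjusted p = 0.753 in edgeR, 0.195 in DESeq2) and 4.38-fold lower with hydrogel than with aspirin (log2 -2.13 ± 0.46 SE; adjusted p = 0.453 in edgeR, 0.00476 in DESeq2). The latter DESeq2 call was lost without Aspirin replicate 1, Hydrogel replicate 1 or Hydrogel replicate 3.

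Because mast cells are the richest source of Hdc, their markers were read beside it. The 8 mast cell genes had a median log2 fold change of 0.18 for aspirin against control and -0.15 for hydrogel against aspirin, and 0 of 8 had an unadjusted p under 0.05 in the latter. With 1 library left out these mast cell medians ran from -0.08 to 0.55 and from -0.46 to 0.14, and with scaling by library size alone they were 0.51 and -0.65, so their direction was not settled. Their summed level was 20 to 32 FPKM in controls, 10 to 51.9 with aspirin and 15.9 to 25.4 with hydrogel. The 3 basophil genes summed to at most 0.777 FPKM in any library, where Hdc itself stood at 0.161 to 2.25 FPKM. The 2 of them tested had a median of 1.58 for aspirin against control and -1.13 for hydrogel against aspirin, the directions of Hdc. With 1 library left out these basophil medians ran from 1.02 to 4.18 and from -1.64 to -0.71, and with no filter on low counts they were 0.22 and -1.28. The part of mast cells and basophils in the Hdc level was not tested. Hnmt, which inactivates histamine, differed by -0.35 ± 0.29 for hydrogel against aspirin (adjusted p = 0.607), and the histamine receptors Hrh1 and Hrh2 differed by 0.56 ± 0.62 and -0.18 ± 0.85. Hrh4 and Aoc1 were too low for the test.

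The balance among the 10 genes was not the same in every library. The 3 receptor genes held 30.2% of their summed FPKM in Aspirin replicate 2, 25.8% in Hydrogel replicate 2 and 24.8% in Hydrogel replicate 3, and at most 8.73% in the other 6 libraries. The FPKM ratio of Csf3r to Ngp was 4.44, 3.33 and 7.65 in those 3 libraries and 0.191 to 0.563 in the others. They are also the libraries in which Ngp and Retnlg were lowest, with 2 to 32 counts of either gene in Aspirin replicate 2 and 0 to 29 in the 2 hydrogel libraries. Retnlg made up 0.364% of the summed FPKM in Aspirin replicate 2 and 16.3% in Control replicate 1.

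**Figure D3:**
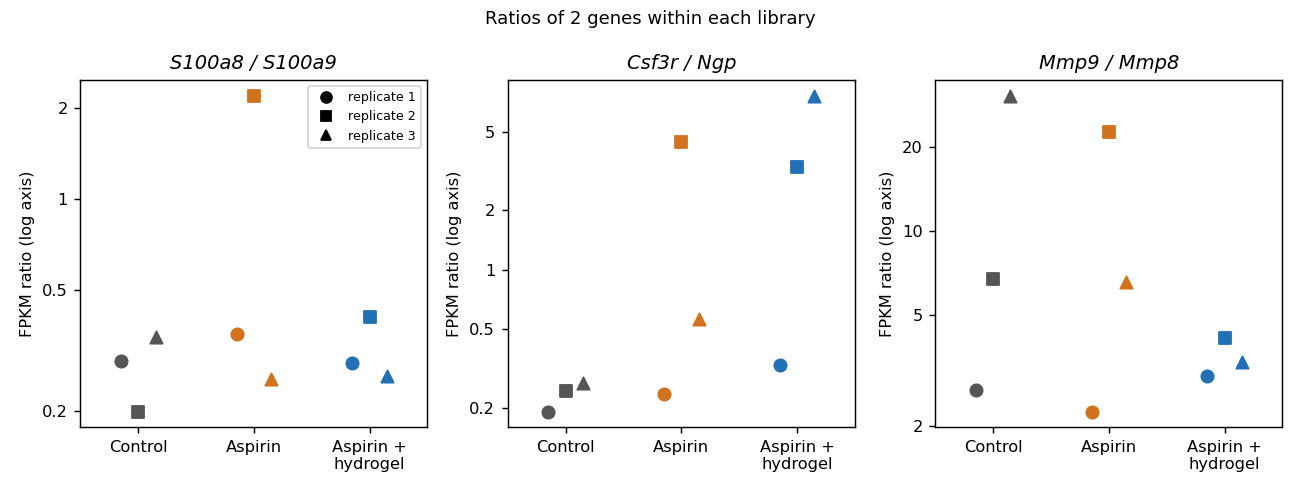
Ratio of FPKM (log axes) of S100a8 to S100a9, Csf3r to Ngp and Mmp9 to Mmp8 in each of the 9 libraries, coloured by group and shaped by replicate. Aspirin replicate 2 stands at 2.2 in the first panel, 3 libraries stand above 3 in the second, and Control replicate 3 (30.6) and Aspirin replicate 2 (22.7) stand apart in the third.

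As a description over 9 libraries that share groups and differ in makeup, the 45 pairs among the 10 genes had a median Pearson correlation of log2 CPM of 0.79. The closest pair was Retnlg and Ngp (0.96) and the loosest Retnlg and Il1r2 (0.23). Without Aspirin replicate 1 these were 0.71, 0.95 and -0.17. With the mean of the other 9, S100a8 had a correlation of 0.97, Mmp8 0.96 and Il1r2, the lowest, 0.61. Without Aspirin replicate 1 these were 0.93, 0.94 and 0.3. Among 13057 other genes averaging at least 1 CPM, the 10 most like the mean of the set were Lcn2 (0.972), Cemip, Cep63, Rwdd2b, Lpcat2, Wwp2, Slc13a3, Col12a1, Nubp1 and Slc7a5 (0.94). Lcn2 encodes lipocalin-2, a siderophore-binding protein of the secondary granules. Of these 10, 4 were kept without Aspirin replicate 1 and 1 when ranks were correlated instead. Gene by gene, Ltf (lactoferrin, of the secondary granules) was the most like Retnlg and Ngp, Il1b the most like Csf3r, Mcemp1 the most like S100a9, and Nubp1 the most like S100a8. Tmem8 was the most like Il1r2, Slc13a3 the most like Hdc, Adra2a the most like Mmp8, BC002059 the most like Mmp9, and Rab44 the most like Trem1. Without Aspirin replicate 1 the nearest gene was another one for 4 of the 10: Kank4 for S100a9, Rasgrp4 for Il1r2, Col12a1 for Hdc and Fadd for Mmp8.

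Other genes that define neutrophils were read to check the label. Of 12 such genes outside the set, 9 passed the filter, while Ly6g, Mrgpra2a and Mrgpra2b were too low. Ly6g, the surface marker by which mouse neutrophils are usually recognised, was at most 1.07 CPM and had 0 counts in Control replicate 3, Aspirin replicate 2 and Hydrogel replicates 2 and 3. The 12 genes summed to 34.3, 3.79 and 7.77 FPKM in controls, to 103, 4.69 and 27.0 with aspirin, and to 7.06, 3.41 and 0.352 with hydrogel. They include Asprv1, also a gene of skin, whose mean in controls was 3.87 FPKM with an SD of 6.43. The part of keratinocytes in the sum of Control replicate 1 was not tested. Between hydrogel and aspirin, 9 of 9 were lower, with a median log2 fold change of -3.40 (-2.40 without Aspirin replicate 1, -4.21 without Hydrogel replicate 1, and -1.55 with log2(FPKM + 1)). Fpr1 and Fpr2, receptors of formylated bacterial and mitochondrial peptides, differed by -4.78 ± 0.88 and -3.65 ± 1.13 (DESeq2 adjusted p = 2.9e-05 and 0.035), and Lcn2 by -3.40 ± 1.11 (0.0439). Stfa2l1, a stefin, differed by -5.95 ± 1.78 (0.0547). In edgeR the adjusted p was 0.453 for all 4 of these. The DESeq2 call of Fpr1 was kept in 9 of 9 fits that left out 1 library, that of Fpr2 in 5 and that of Lcn2 in 4; without Aspirin replicate 1 the latter 2 were lost. Between aspirin and control 8 of 9 were higher, with a median of 1.77 (0.91 without Aspirin replicate 1, and -0.06 with limma-voom). Between hydrogel and control 9 of 9 were lower, with a median of -1.46 (-0.64 without Control replicate 1, -2.58 without Hydrogel replicate 1).

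Genes of each granule class were read next. The lists that follow share genes with the neutrophil-defining list, so their counts are not independent of it. Ltf, Camp, Lcn2 and Cd177 recur among the secondary granule genes. Cxcr2, Fpr1 and Fpr2 recur among the surface receptors, and Stfa2l1 and Asprv1 among the cytoplasmic and secreted genes. Pglyrp1 is in both the latter list and the partner list. For hydrogel against aspirin, 4 of 4 primary granule genes tested were lower with a median log2 fold change of -1.95, which was -0.27 without Aspirin replicate 1, -1.25 without Hydrogel replicate 3, -1.02 with the replicate block and -0.69 with limma-voom. The serine protease genes Ctsg, Elane and Prtn3 differed by -4.08 ± 2.07, -2.20 ± 1.52 and -1.06 ± 0.91, and Mpo, myeloperoxidase, by -1.71 ± 1.58. Of 6 secondary granule genes outside the set, 6 were lower with a median of -3.28 (-2.22 without Aspirin replicate 1), and DESeq2 called 2, Chil3 (-3.48 ± 1.06, adjusted p = 0.0309) and Lcn2. Of 7 late granule, adhesion and extracellular trap genes, 7 were lower with a median of -0.88. That median was -0.02 without Aspirin replicate 1, -0.51 without Hydrogel replicate 3, -1.84 without Hydrogel replicate 2 and -1.42 with library size alone. In this list DESeq2 called Itgam, the integrin chain CD11b (-2.0 ± 0.40, adjusted p = 0.00229). The call of Chil3 was lost without Aspirin replicate 1, Hydrogel replicate 2 or Hydrogel replicate 3, and that of Itgam without Hydrogel replicate 3. edgeR called 0 of the genes in each of these lists.

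Among 11 other neutrophil surface receptors tested, Cxcr2, Fpr1 and Fpr2 of the neutrophil-defining list included, 10 were lower with hydrogel than with aspirin, with a median of -2.31. DESeq2 called Fpr1, Fpr2 and Clec4e (Mincle, a sensor of damaged cells; -3.94 ± 0.89, adjusted p = 0.00143), the last of which was lost without Aspirin replicate 1. C5ar1, the receptor for complement C5a, went the other way. It stood at 13.7, 8.84 and 17.6 CPM in controls, at 5.66, 6.67 and 2.83 CPM with aspirin and at 18.1, 17.9 and 8.94 CPM with hydrogel. Every aspirin library lay below every other library (log2 1.56 ± 0.42 SE for hydrogel against aspirin; adjusted p = 0.453 in edgeR, 0.0545 in DESeq2). Of 10 other neutrophil cytoplasmic and secreted genes 9 were lower with a median of -2.05 (-0.5 without Aspirin replicate 1, -1.35 for genes averaging at least 1 CPM). edgeR called 0 of the 10, with 4 at an unadjusted p under 0.05, and DESeq2 called 0 of the 9 for which it gave an adjusted p, all but Slpi. Of 5 granulocyte transcription factor genes, 3 were lower with a median of -0.63. This median had no settled direction: it was 0.19 without Aspirin replicate 1, -0.27 without Hydrogel replicate 1, -1.15 without Hydrogel replicate 2, -1.3 with library size alone, -0.28 for genes averaging at least 1 CPM and -0.27 with the replicate block. Spi1, which encodes PU.1, differed by -1.23 ± 0.48 with no overlap (adjusted p = 0.453 in edgeR, 0.213 in DESeq2). Of 15 partner genes tested, 13 were lower with a median of -1.0, which was -0.39 without Aspirin replicate 1, -1.63 with library size alone and -1.53 with no filter on low counts.

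Several neutrophil genes are shared with monocytes and macrophages. The median of their markers went the same way as that of the set for hydrogel against aspirin and for aspirin against control. For hydrogel against control it had no settled direction. The 13 monocyte and macrophage genes summed to 814, 365 and 1010 FPKM in controls, to 2986, 1909 and 747 with aspirin, and to 693, 816 and 238 with hydrogel. All 13 were lower with hydrogel than with aspirin, with a median of -1.06, and all 13 higher with aspirin than in controls, with a median of 0.94. Without Aspirin replicate 1 these medians were -0.73 and 0.73, where the 10 genes had -2.17 and 0.28. Between hydrogel and control the 10 genes had a median of -1.88, with Csf3r at -0.13 and Il1r2 at -0.18. Of the 13, 6 were higher there and 7 lower, with a median of -0.06 (-0.22 without Control replicate 2, 0.19 without Control replicate 3). DESeq2 called Ccr2 alone for hydrogel against aspirin (-1.56 ± 0.39, adjusted p = 0.0323), a call lost without Control replicate 3, Aspirin replicate 1, Hydrogel replicate 1 or Hydrogel replicate 3, and edgeR called 0. Aspirin replicate 2 held the second highest sum of the 13 monocyte and macrophage genes and low levels of S100a9, Ngp, Retnlg and Trem1. In that library Csf3r (9.76 CPM) and Il1r2 (7.42 CPM) lay above every control and hydrogel library. S100a8, Hdc, Mmp8 and Mmp9 lay within the control range there. Erythroid genes, a measure of blood in the tissue, summed to 4001, 390 and 6681 FPKM in controls, to 6724, 5640 and 454 with aspirin and to 457, 885 and 630 with hydrogel. Between hydrogel and control their median was -2.31, against -1.64 for the osteoclast genes and -1.15 for 4 platelet genes. With 1 library left out these ran from -2.84 to -1.41, from -2.12 to -0.45 and from -1.87 to -0.67. The part of macrophages and of blood in the levels of the 10 genes was not tested.

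**Figure D4:**
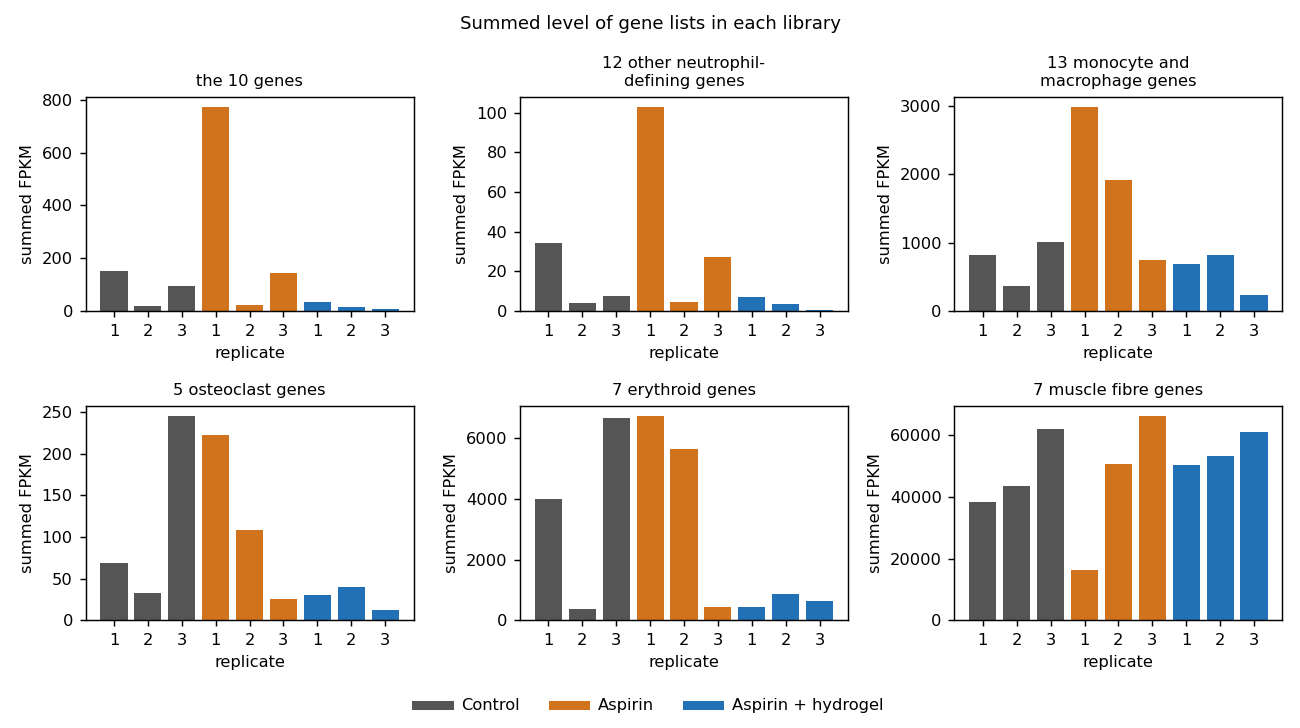
Summed FPKM in each of the 9 libraries for the 10 genes and for lists of other neutrophil-defining, monocyte and macrophage, osteoclast, erythroid and muscle fibre genes. Aspirin replicate 1 holds the highest sum of the 10 genes (773), of the other neutrophil genes (103) and of the macrophage genes (2986), and the lowest of the muscle fibre genes (16444). The sums do not carry the scaling used for CPM.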

How the data were processed

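RNA libraries from leg muscle were prepared with a SMARTER kit for mRNA (per the labels). The authors deposited raw counts per Ensembl gene and, for the same genes, FPKM values. Reads were placed on mm10, according to the submitters' processing notes. Aligner, counter, annotation and strand setting: not given in the sources used here. No gene of the set shares exonic bases with another annotated gene; the partners Il1a, Il1b, Il1rap, Timp3 and Hrh2 do, on the other strand, with genes averaging at most 1.11 CPM, and are uncertain to that extent. Coordinates are from GENCODE vM21, promoters from RefSeq. Groups came from the treatment labels, which describe separate mice.

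The main test was edgeR 4.0.16 (R 4.3.3, robust quasi-likelihood fit, TMM, filterByExpr with a minimum count of 10 and total of 15) on all 9 libraries, with Benjamini-Hochberg adjustment over 18259 genes and a threshold of 0.05. CPM are counts over TMM-scaled library size. Alternatives were DESeq2 1.42.0, limma 3.58.1 (voom, and log2 FPKM with a pseudocount of 0.1 or 1), other scalings and filters, a replicate block, and leaving out each library. Counts of 0 allow up to 3 counts, which covers counting error only.

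The members and lists were chosen with earlier results of these data known. Named genes are the 10 members, up to 4 genes per list by smallest unadjusted p or highest FPKM, any partner gene, the 10 genes most like the set and the gene most like each member. Beyond this rule, Ly6g, the untested receptor and secreted genes given with counts, C5ar1 per library and the genes of the closing section were picked with their values in view. Genes given as shared between lists are named for that reason alone.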

Additional observations from a re-analysis of the deposited data

How the results depend on the processing

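edgeR's quasi-likelihood test called 0 of the 10 genes in every comparison and alternative run, and of all genes it called 0 except 1 for hydrogel against aspirin with the replicate block, 2 in that comparison without Aspirin replicate 3, and 1 for any difference without Aspirin replicate 2. DESeq2 called 101 genes for aspirin against control, 18 for hydrogel against control, 157 for hydrogel against aspirin and 153 for any difference, of which 1, 1, 6 and 3 were among the 10. At an unadjusted p under 0.05 edgeR gave 1183, 716, 1996 and 1272 genes. DESeq2 with 1 library left out at a time, an alternative chosen after seeing the data, called 38 to 619, 7 to 56, 39 to 2068 and 100 to 1282 genes, and 0 to 3, 0 to 1, 0 to 8 and 1 to 6 of the 10; the most calls of all genes came without Aspirin replicate 3 for aspirin against control (619), hydrogel against aspirin (2068) and any difference (1282). The median of the 10 genes kept its sign under every alternative in each comparison. It ran from 0.28 to 2.27 for aspirin against control, from -2.91 to -1.45 for hydrogel against control and from -4.15 to -2.17 for hydrogel against aspirin with 1 library left out. With log2(FPKM + 1) the median of the 10 genes was -1.06 for hydrogel against control and -1.88 for hydrogel against aspirin, both outside these ranges. Scaling by library size alone shifted the median over all genes by 0.23 for aspirin against control, -0.22 for hydrogel against control and -0.46 for hydrogel against aspirin.

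No gene of the set turned its direction between hydrogel and aspirin under the alternatives run. Trem1 did not pass the filter when only the 2 groups compared were fitted, for hydrogel against aspirin and hydrogel against control. For aspirin against control Retnlg turned to -1.43 with limma-voom, -0.67 with the replicate block, -1.01 and -0.29 with log2 FPKM and pseudocounts of 0.1 and 1, and -2.06 to 1.62 with 1 library left out (1.59 without Control replicate 1 in edgeR, -2.06 and -0.02 without Aspirin replicate 1 and Control replicate 2, and -2.04 in DESeq2 for the former). Mmp9 turned to 0.29 with library size alone, 1.02 with limma-voom, 0.61 with the replicate block, 1.09 and 0.82 with log2 FPKM, 2.37 without Control replicate 3 and 0.15 without Aspirin replicate 2 (2.36 and 0.17 in DESeq2), in a leave-out range from -0.73 to 2.37. For hydrogel against control Csf3r turned to 0.12 with the replicate block, 0.08 without Control replicate 1, 0.09 without Control replicate 3 and 0.03 without Hydrogel replicate 3 (0.08, 0.1 and 0.04 in DESeq2), with -0.5 at the other end of the range. Il1r2 turned to 0.05 without Control replicate 1 and 0.11 without Hydrogel replicate 1 (0.06 and 0.11 in DESeq2), with -0.58 at the other end. The cause was not tested.

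Same-numbered libraries of different groups had deviations correlated from -0.44 to 0.62, and 5 of 9 libraries correlated best with their own number, so the numbers were not taken to pair the mice; the replicate block changed no call of the 10 genes. Groups of 3 mice with a common biological coefficient of variation of 0.503 limit what could be called, and genes under about 0.1 CPM are at the limit of depth.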

Other observations

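Slpi, a protease inhibitor of neutrophils and of epithelia, was chosen after its values were seen. It stood at 310 CPM in Aspirin replicate 1 and at 0 to 9.57 CPM in the other 8 libraries, so that 1 library carried the value of the aspirin group. Asprv1, a protease of skin that neutrophils also express, stood at 15.7 CPM in Control replicate 1 and at 0.167 to 2.69 CPM elsewhere. Control replicate 1 also held Krt10 at 59.9 CPM, against 0.771 to 1.60 CPM in the other libraries, and Krt1 at 32.4 CPM, against at most 0.552 CPM.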
